A study of Mus musculus with 17 samples.

Results

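Fc gamma receptors are the proteins through which cells bind the constant part of immunoglobulin G. The genes described here are the 4 classical mouse receptor genes Fcgr1, Fcgr2b, Fcgr3 and Fcgr4, the signalling chain gene Fcer1g, and Fcgrt, which encodes the neonatal Fc receptor. They were chosen by name, with earlier results of these data known, as 6 of the 31647 features of the deposited table. All 6 had enough counts to be tested. Transcript levels had been measured by massive analysis of cDNA ends (MACE), which counts molecules by their 3' ends. The samples were hearts of wild-type male C57BL/6J mice aged 8 to 11 weeks. In 9 mice the left anterior descending coronary artery was permanently ligated and RNA was taken from the infarct zone (IZ) 5 days later. The other 8 mice had sham surgery without ligation, and their left ventricle served as the control. Ligation and the region sampled differ together between the groups and cannot be told apart, and whole tissue was sampled, so every value is a mixture over cell types.

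Fc gamma receptors differ in how tightly they hold antibody and in what they signal. Fcgr1 encodes the high-affinity receptor, which can bind single antibody molecules, whereas the products of Fcgr3 and Fcgr4 bind immune complexes. These activating receptors signal through the Fcer1g chain, whose tyrosine-based activation motif (ITAM) recruits the kinase Syk and starts phagocytosis and cytokine release. Fcgr2b encodes the inhibitory receptor, which carries an inhibitory motif (ITIM) and recruits the phosphatase encoded by Inpp5d. Fcgrt is different in kind: its product pairs with beta-2 microglobulin, binds antibody in acidic endosomes and returns it to the surface, and is known from endothelium as well as from macrophages. Macrophages and monocytes carry all of these receptors, neutrophils carry several, B cells carry Fcgr2b, and Fcer1g also serves mast cells, natural killer (NK) cells and platelets.

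Libraries held 1237675 to 4738307 counts. Mitochondrially encoded features took 22.9 to 32.4% of the counts in sham and 4.22 to 6.78% in the IZ, except for IZ replicate 1 with 19.5%. That library also stood apart in its markers. Its summed level of 8 cardiomyocyte genes was 28186 CPM, the highest of the IZ libraries, against 2910 CPM in the lowest IZ library and 66777 to 80531 CPM in sham. CPM is the usual depth-scaled count, with library sizes corrected by the trimmed mean of M values (TMM). In IZ replicate 1 the summed level of 5 macrophage core markers, named with the receptor genes' cell types, was 1557 CPM, the lowest of the IZ libraries, of which the highest reached 4447 CPM. The members are therefore given with and without this library.

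The comparison between the IZ and sham asked which receptor genes differed in the injured heart. All 4 classical receptor genes and Fcer1g were higher in the IZ, by 8.69-fold to 14.4-fold, and every IZ library lay above every sham library for each of these 5 genes. Fcgrt showed no such difference. As a background, the quasi-likelihood test of edgeR, adjusted by the Benjamini-Hochberg method, called 69.5% of the 12301 tested genes, and 36.3% were called higher in the IZ. In 16.6% of tested genes every IZ library lay above every sham library. A log2 fold change at least as large as that of Fcgr2b, the smallest of the 5, was reached by 3.06% of tested genes. In bulk tissue, more cells of a type and more RNA per cell cannot be told apart.

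Fcgr1 (ENSMUSG00000015947, mm10 chromosome 3, 96282909 to 96293969, minus strand), the high-affinity receptor, had 4 to 13 counts in the sham libraries with a median of 6. In the IZ it had 79 to 430 counts with a median of 151. In CPM the sham libraries ran from 2.05 to 6.05 and the IZ libraries from 28.4, in replicate 1, to 77.2. Fcgr1 was scarce but detected in every sham heart, and the groups were far apart. The mean level rose from 4.02 ± 1.35 CPM (SD, n = 8) to 58.7 ± 15.0 CPM (SD, n = 9), a log2 fold change of 3.85 ± 0.22 (SE), with an adjusted p of 1.75e-12 by edgeR. This was the largest fold of the 6 genes, with that of Fcgr4 within its SE.

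Fcgr3 (ENSMUSG00000059498, chromosome 1, 171051174 to 171064935, minus strand), a low-affinity activating receptor, was the most abundant of the 4 classical receptor genes in both groups. Sham libraries had 25 to 48 counts with a median of 37.5, and IZ libraries had 230 to 1438 with a median of 652. The level was 15.6 to 29.0 CPM in sham and 185 to 265 CPM in IZ replicates 2 to 9. IZ replicate 1 lay apart from the others at 82.6 CPM and was still above every sham library. The mean rose from 21.4 ± 5.23 CPM (SD, n = 8) to 204 ± 51.0 CPM (SD, n = 9), a log2 fold change of 3.26 ± 0.20 (SE) with an adjusted p of 3.24e-12 by edgeR. Without IZ replicate 1 the IZ mean was 219 ± 24.9 CPM (SD, n = 8).

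Fcgr4 (ENSMUSG00000059089, chromosome 1, 171018920 to 171029761, plus strand), the other low-affinity activating receptor, was the rarest member in both groups. It had 2 to 6 counts in each sham library and 30 counts in all 8 together (exact Poisson 95% interval 20.2 to 42.8, counting error only). The IZ libraries had 43 to 238 counts with a median of 72. The sham level of Fcgr4 is thus known only roughly, while the gap between the groups is wide. With so few sham counts, Fcgr4 passed the count filter through its IZ counts, as did Fcgr1. Fcgr4 rose from 2.10 ± 0.716 CPM (SD, n = 8) to 30.3 ± 7.10 CPM (SD, n = 9), a log2 fold change of 3.82 ± 0.22 (SE) with an adjusted p of 2.35e-12 by edgeR.

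Fcgr2b (ENSMUSG00000026656, chromosome 1, 170958617 to 170976547, minus strand), the inhibitory receptor, had 11 to 28 counts in sham with a median of 16. In the IZ it had 140 to 795 counts with a median of 229. The highest sham library had 18.8 CPM and the lowest IZ library, replicate 1, had 50.3 CPM. The inhibitory gene therefore moved in the same direction as the activating genes. It rose from 10.4 ± 4.38 CPM (SD, n = 8) to 88.6 ± 24.8 CPM (SD, n = 9), a log2 fold change of 3.12 ± 0.22 (SE) with an adjusted p of 3.50e-11 by edgeR.

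Fcer1g (ENSMUSG00000058715, chromosome 1, 171229572 to 171234365, minus strand), the shared signalling chain, had 21 to 59 counts in sham with a median of 29. In the IZ it had 199 to 1469 counts with a median of 452. The level was 12.5 to 26.7 CPM in sham and 107 to 256 CPM in the IZ. It rose from 17.6 ± 4.70 CPM (SD, n = 8) to 183 ± 48.9 CPM (SD, n = 9), a log2 fold change of 3.38 ± 0.19 (SE) with an adjusted p of 1.23e-12 by edgeR. Leaving out IZ replicate 1 moved the log2 fold changes of these 5 genes little, to 3.90 for Fcgr1, 3.17 for Fcgr2b, 3.34 for Fcgr3, 3.85 for Fcgr4 and 3.40 for Fcer1g.

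Fcgrt (ENSMUSG00000003420, chromosome 7, 45092990 to 45103851, minus strand), the neonatal Fc receptor, was the most abundant member in sham. It had 56 to 208 counts in sham with a median of 100, and 63 to 429 counts in the IZ with a median of 259. The groups overlapped: sham libraries had 40.8 to 79.4 CPM and IZ libraries 33.8 to 94.0 CPM, with 2 of 9 IZ libraries above all of sham and 1 below. The means were 58.5 ± 12.9 CPM (SD, n = 8) and 63.3 ± 19.3 CPM (SD, n = 9). The log2 fold change was 0.11 ± 0.17 (SE, 95% interval -0.23 to 0.45) and was not called by edgeR (adjusted p 0.589). The highest IZ library was replicate 1, and without it the log2 fold change was -0.01. The scaling changed the call of this gene alone among the 6, although it moved the log2 fold changes of all 6. Scaling by total counts alone moved the typical gene by 1.08 on the log2 scale. Fcgrt then had a log2 fold change of 1.17 (adjusted p 1.72e-07 by edgeR), which is 0.09 above that general shift. The other 5 genes then had 4.21 to 4.95.

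**Figure D1:**
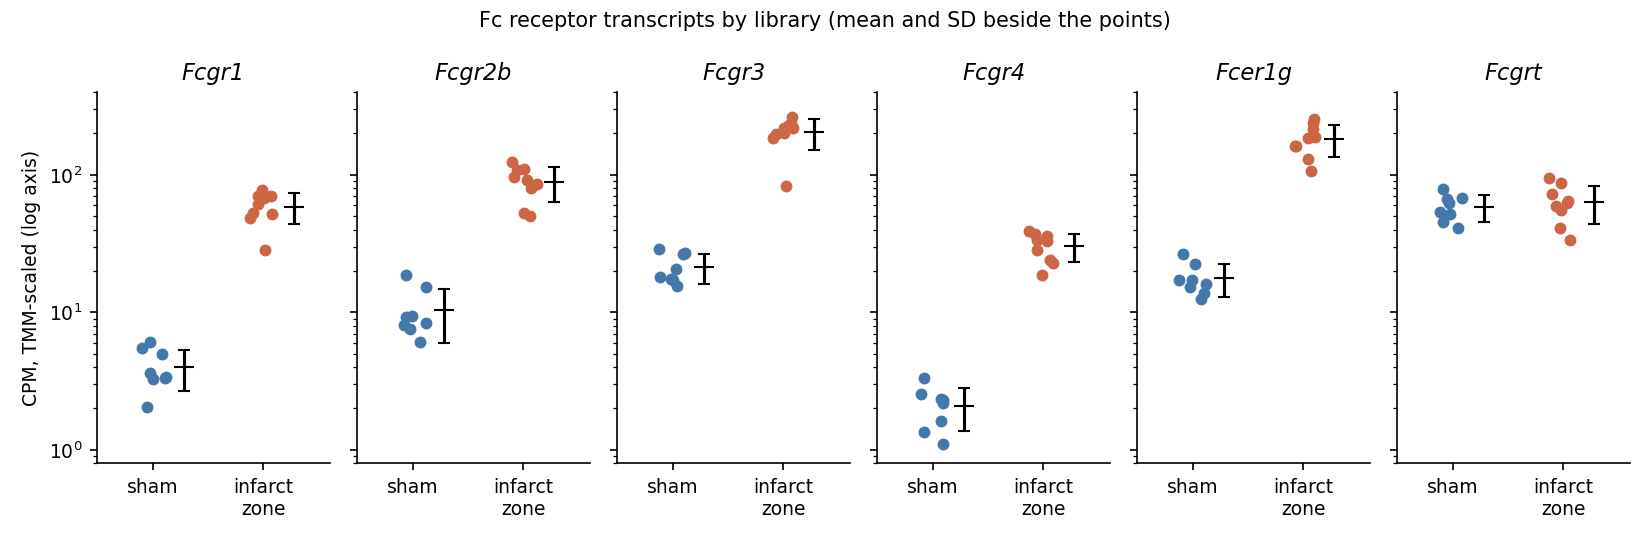
Level of each Fc receptor gene in every library, in TMM-scaled CPM on a log axis, with sham in blue (8 libraries) and infarct zone in orange (9 libraries); the cross-bar and whiskers beside the points are the mean and SD. For 5 genes the groups do not overlap, while the Fcgrt points of both groups share the same range.

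The order of the genes differed between the groups. MACE counts are 3' ends, about 1 per molecule, so levels can be compared between genes without dividing by length. In sham, Fcgrt led in 8 of 8 libraries, followed by Fcgr3 and Fcer1g, whose means differed by less than their SD (Fcgr3 was the higher in 6 of 8), then Fcgr2b, Fcgr1 and Fcgr4. In the IZ, Fcgr3 and Fcer1g led and again differed by less than their SD (Fcgr3 was the higher in 6 of 9). They were followed by Fcgr2b, by Fcgrt and Fcgr1, which were as close (Fcgrt was the higher in 5 of 9), and by Fcgr4, which was below Fcgr1 in 9 of 9. Fcgrt thus led in sham and stood below Fcgr3, Fcer1g and Fcgr2b in the IZ, with nearly the same mean in both groups.

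The last 500 bases of each member's transcript, where MACE reads fall, were compared with all annotated transcripts. Only the best-scoring match of each member to another gene was kept. None of these was another member, and Fcgr2b, Fcer1g and Fcgrt had no match. The best matches were short, for Fcgr3 79 bases at 81.0% identity to Rlim. Those of Fcgr1 and Fcgr4 were 64 bases at 89.1% to Tnpo1 and 54 bases at 92.6% to Hoxd9. Weaker matches of these 3 genes to another member were not looked for. Fcgr3 overlaps the microRNA gene Mir6546 and Fcgr4 the small nuclear RNA gene Gm26110 on the same strand. Fcgr2b and Fcgrt have the antisense partners Gm38204 and Gm45669, and the sources used here do not state whether strand was used in counting.

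Since 5 genes rose together and belong to the myeloid programme, the sequence just upstream of their RefSeq starts is shown. PU.1, the product of Spi1, is the ETS-family factor known to drive Fc gamma receptor genes in myeloid cells, often together with interferon regulatory factors (IRF). The 120 bases before each RefSeq start were searched on both strands for the PU.1 core GAGGAA and for an ETS and IRF composite, GGAA and GAAA with any 2 bases between them. Both motifs were chosen after the windows had been read. RefSeq (GRCm38.p6) windows existed for all 6 genes, and 4 of 6 held a match, each on the strand opposite to the gene. The matches, in capitals, read 5' to 3' along the gene as follows.
Fcgr1, chr3:96293970-96294089, minus strand: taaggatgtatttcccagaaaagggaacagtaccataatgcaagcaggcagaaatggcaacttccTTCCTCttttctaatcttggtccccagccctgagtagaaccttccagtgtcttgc
Fcgr3, chr1:171059404-171059523, minus strand: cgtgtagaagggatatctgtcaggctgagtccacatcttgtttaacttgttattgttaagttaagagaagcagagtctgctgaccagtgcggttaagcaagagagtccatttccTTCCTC
Fcgr4, chr1:171018806-171018919, plus strand: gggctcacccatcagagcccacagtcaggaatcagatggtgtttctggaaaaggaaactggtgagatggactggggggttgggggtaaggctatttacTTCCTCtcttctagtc
Fcgr2b, chr1:170976087-170976116, minus strand: gaccgtttctTTTCACTTCCccatttggac

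The activating receptor genes Fcgr1, Fcgr3 and Fcgr4 share the PU.1 core, here read as TTCCTC, at 55 to 50, 6 to 1 and 22 to 17 bases before the start. Fcgr3 has another RefSeq start 9 bases downstream. Its printed window lies inside the gene coordinates given above, which reach further upstream, to base 171064935. The inhibitory receptor gene Fcgr2b held the composite at 35 to 26 bases before the start, in a stretch that GENCODE annotates as exon. No window held both motifs, so they did not overlap. Among 32851 windows of the same length before RefSeq starts, 11.6% held the PU.1 core, 1.07% the composite and 12.4% either. Because the motifs were chosen after the members' windows had been read, these shares cannot test whether the matches are enriched. The letters searched were not in the windows of Fcer1g and Fcgrt. A match describes the sequence and was not tested as a binding site.

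A second question was whether the receptor genes kept their proportions. The counts of the 4 classical receptor genes summed to 46 to 89 per sham library and 501 to 2791 per IZ library, or 37.9 ± 9.54 CPM (SD, n = 8) and 381 ± 82.3 CPM (SD, n = 9). Fcgr1 took a larger share of this pool in the IZ. Its share was 10.6 ± 2.75% in sham (SD, n = 8) and 15.4 ± 1.56% in the IZ (SD, n = 9), a difference of 4.75 points with an exact permutation p of 7.4e-04 (two-sided over all 24310 splits, adjusted over the 4 shares 0.00296). The sham shares ran from 6.56 to 15.9% and the IZ shares from 12.6 to 17.1%, so that 5 of 9 IZ libraries lay above all of sham.

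The shares of the other receptor genes did not pass the test. Fcgr3 made up 56.7 ± 5.79% in sham (SD, n = 8) and 53.1 ± 6.19% in the IZ (SD, n = 9), with an adjusted exact permutation p of 0.238. Fcgr2b made up 26.7 ± 5.04% and 23.5 ± 4.94%, with the same adjusted exact permutation p of 0.238. Fcgr4 made up 5.99 ± 2.88% and 8.05 ± 1.27%, with an adjusted exact permutation p of 0.144. The sham shares of Fcgr4 rest on 2 to 6 counts per library. Over the 17 fits with 1 library left out, the difference was 1.52 to 2.79 points (adjusted exact permutation p 0.0117 to 0.293). The value of 2.79 came without sham replicate 4, the sham library with the highest Fcgr4 share, an omission that widens the gap by construction.

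**Figure D2:**
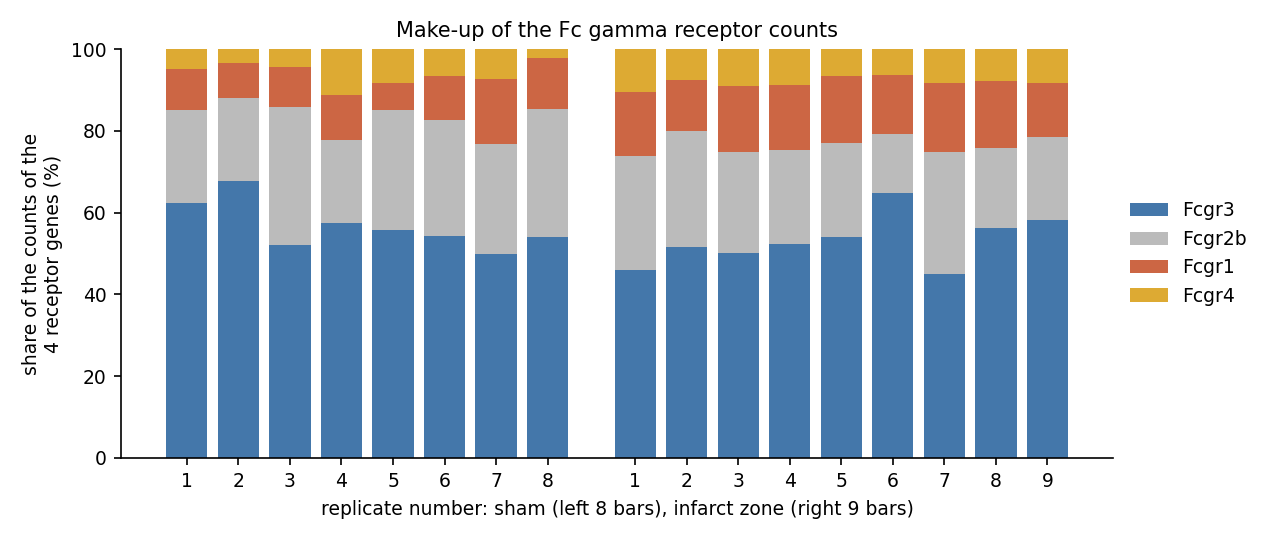
Share in percent of Fcgr3, Fcgr2b, Fcgr1 and Fcgr4 in the summed counts of the 4 genes, 1 bar per library, with the 8 sham libraries on the left and the 9 infarct zone libraries on the right. The Fcgr1 band runs from 6.56 to 15.9% in sham, against 12.6 to 17.1% for the infarct zone, and Fcgr3 is the largest band in every library.

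Ratios within each library set activating against inhibitory genes. Each ratio was taken as a difference of log2 CPM with a prior count of 1, and p-values were adjusted over 8 ratios. Fcgr1 to Fcgr2b was -1.27 ± 0.42 in sham (SD, n = 8) and -0.58 ± 0.34 in the IZ (SD, n = 9), which corresponds to ratios of 0.415 and 0.667. The difference of 0.68 ± 0.19 (SE) had an exact permutation p of 0.00181 (adjusted 0.00724), and 6 of 9 IZ libraries lay above all of sham. The high-affinity gene thus rose more than the inhibitory gene. With a prior count of 5 the difference was 0.46 (adjusted exact permutation p 0.0574); the sham counts of Fcgr1 were 4 to 13.

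Fcgr3 to Fcgr2b differed by 0.12 ± 0.21 (SE) between the groups, with an adjusted exact permutation p of 0.576. Fcgr4 to Fcgr2b differed by 0.58 ± 0.29 (SE), with an adjusted exact permutation p of 0.112. Over the 17 fits with 1 library left out, the latter was 0.38 to 0.76 (adjusted exact permutation p 0.00606 to 0.233). The value of 0.76 came without sham replicate 4, which had the highest sham ratio, an omission that widens the gap by construction. The 3 activating genes together stood at 2.72 times Fcgr2b in sham and 3.31 times in the IZ, a log2 difference of 0.29 ± 0.19 (SE) that did not pass the test (adjusted exact permutation p 0.231). Dominated by Fcgr3, the sum of activating genes was therefore not shown to move against the inhibitory gene.

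Activating receptors need the Fcer1g chain, and the ratios to it gave no call. The log2 differences between the groups were 0.43 for Fcgr1 to Fcer1g (adjusted exact permutation p 0.112), -0.13 for Fcgr3 to Fcer1g (0.576) and 0.32 for Fcgr4 to Fcer1g (0.231). Fcgr1 to Fcer1g ran from -2.56 to -1.44 in sham and from -2.17 to -0.60 in the IZ. Over the 17 fits with 1 library left out, its difference was 0.30 to 0.52 (adjusted exact permutation p 0.0424 to 0.211). The value of 0.52 came without sham replicate 8, which had the highest sham ratio, an omission that widens the gap by construction.

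Fcgrt and its partner B2m, the beta-2 microglobulin gene, moved apart, as B2m rose while Fcgrt was not called. B2m rose from 481 ± 71.0 CPM (SD, n = 8) to 1173 ± 146 CPM (SD, n = 9), a log2 fold change of 1.29 ± 0.14 (SE) with an adjusted p of 1.51e-08 by edgeR. Fcgrt to B2m fell from a ratio of 0.121 to 0.0523. The log2 difference was -1.21 ± 0.16 (SE), with 9 of 9 IZ libraries below all of sham (exact permutation p 8.23e-05, adjusted 6.58e-04). IZ replicate 1 had the highest ratio of the IZ libraries, -3.64 on the log2 scale, against -3.53 in the lowest sham library. B2m also serves the class I major histocompatibility molecules, so the ratio is not a measure of receptor pairs.

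**Figure D3:**
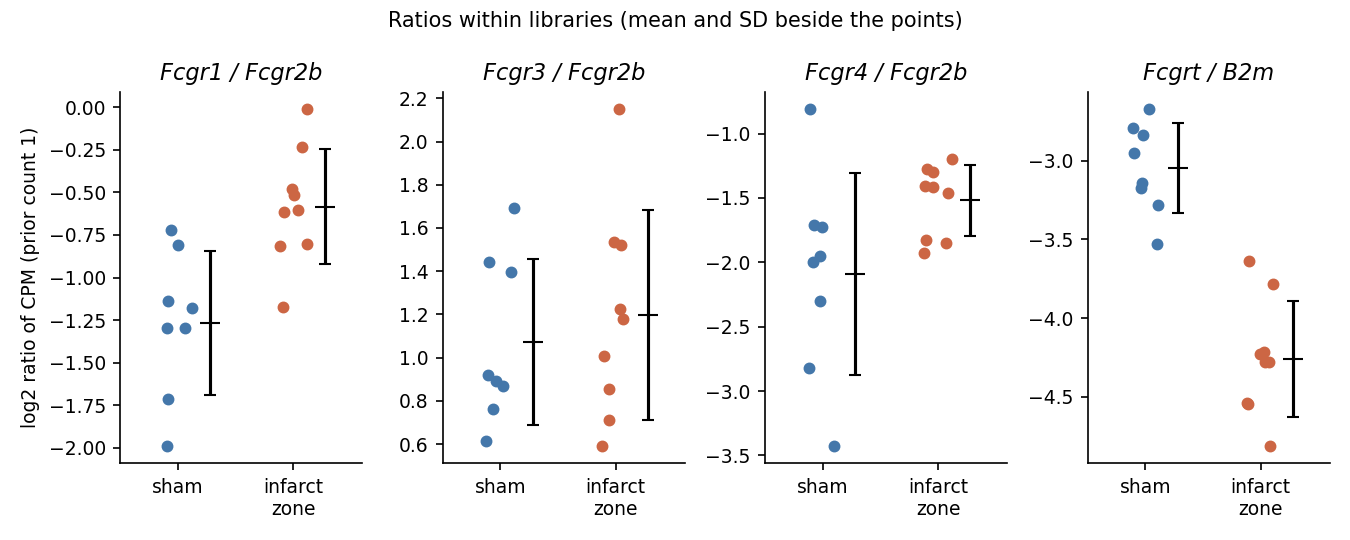
Log2 ratio of CPM within each library for 4 gene pairs, with sham in blue (8 libraries), infarct zone in orange (9 libraries) and mean and SD beside the points. All 9 infarct zone points of Fcgrt to B2m lie below sham and 6 of 9 of Fcgr1 to Fcgr2b lie above it, while the other 3 of that pair lie inside the sham range and the groups overlap for Fcgr3 to Fcgr2b and Fcgr4 to Fcgr2b.

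The receptor genes were next set beside markers of the cells that carry them. All 5 macrophage core markers with a feature rose: Cd68 by 4.09, Lyz2 by 3.41, Adgre1 by 3.19, Cd14 by 2.61 and Csf1r by 2.31 on the log2 scale. Their summed level was 272 to 413 CPM in sham and 1557 to 4447 CPM in the IZ, and none was at 0. The median log2 fold change of this list was 3.19, against 0.05 over all tested genes. The 5 receptor genes that rose, with log2 fold changes of 3.12 to 3.85, lay within the range of these markers. The part of macrophage number in their rise was not tested.

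Each member was then expressed relative to the mean log2 CPM of the 5 macrophage core markers, with p-values adjusted over the 6 genes. On this scale the groups differed by -0.01 ± 0.21 for Fcgr2b (SE, adjusted exact permutation p 0.960). Fcgr3 differed by 0.11 ± 0.09 (SE, adjusted exact permutation p 0.259) and Fcer1g by 0.25 ± 0.17 (SE, adjusted exact permutation p 0.243). These 3 genes were not shown to rise by more or less than the macrophage markers.

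Fcgr1 rose by more than the mean of the 5 markers, although Cd68 alone rose by more than Fcgr1. It stood at -2.56 ± 0.45 in sham (SD, n = 8) and -1.89 ± 0.26 in the IZ (SD, n = 9), a difference of 0.67 ± 0.18 (SE) with an exact permutation p of 0.00148 (adjusted 0.00444) and with 5 of 9 IZ libraries above all of sham. A prior count of 5 reduced it to 0.38 (adjusted exact permutation p 0.0564). Fcgr4 differed by 0.56 ± 0.23 (SE), with an adjusted exact permutation p of 0.0440 that was the least secure of the calls. It was lost without any of sham replicates 1, 2, 3 and 8 or IZ replicates 1, 2, 3, 4, 7, 8 and 9, where the difference was 0.46 to 0.57, and the lowest such value, 0.46, came without sham replicate 2. With a prior count of 5 it was 0.05.

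Fcgrt did not rise with the markers. Relative to them it stood at 1.22 ± 0.46 in sham (SD, n = 8) and -1.79 ± 0.62 in the IZ (SD, n = 9), a difference of -3.01 ± 0.26 (SE). Fcgrt itself had nearly the same level in both groups. The difference therefore mainly restates the rise of the marker mean, from 4.63 to 7.72 log2 CPM, and does not show a fall of Fcgrt. All 9 IZ libraries were below all of sham (exact permutation p 8.23e-05, adjusted 4.94e-04). IZ replicate 1 was the highest of them at -0.38, and the others were at -2.44 to -1.45. Leaving out any library kept the difference between -3.19 and -2.91.

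Within the groups, Fcgr3 followed the macrophage markers most closely. The 12 relations, 6 genes in each group, were tested by exact permutation of the pairings, since both groups form separate clusters. Over the 9 IZ libraries Pearson's r of Fcgr3 was 0.96 (exact permutation p 2.59e-04, adjusted 0.00311) and Spearman's rho 0.82 (p 0.0108, adjusted 0.0646). Without replicates 1 and 7, the libraries farthest from the median marker level, r was 0.82 (adjusted exact permutation p 0.200, 7 libraries). Over the 8 sham libraries r was 0.89 (adjusted exact permutation p 0.0244) and rho 0.95 (adjusted 0.0137), and r was 0.73 without replicates 2 and 3 (adjusted 0.292). Both Fcgr3 relations therefore rest in part on these libraries.

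The other members showed looser relations, none of which passed the test. In the IZ, r was 0.80 for Fcgr1, 0.66 for Fcgr4, 0.63 for Fcer1g, 0.41 for Fcgr2b and -0.15 for Fcgrt, with adjusted exact permutation p-values of 0.121, 0.121, 0.157, 0.436 and 0.690. Spearman's rho was 0.57, 0.67, 0.65, 0.03 and 0.25 in the same order, with adjusted exact permutation p-values of 0.289, 0.200, 0.200, 0.977 and 0.625. Without replicates 1 and 7, r of Fcer1g was -0.01 and that of Fcgr2b -0.05, so these relations rested on those libraries. In sham the r of these genes ran from -0.46 for Fcgr4 to 0.57 for Fcgr2b, at 2 to 6 counts per library for Fcgr4.

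**Figure D4:**
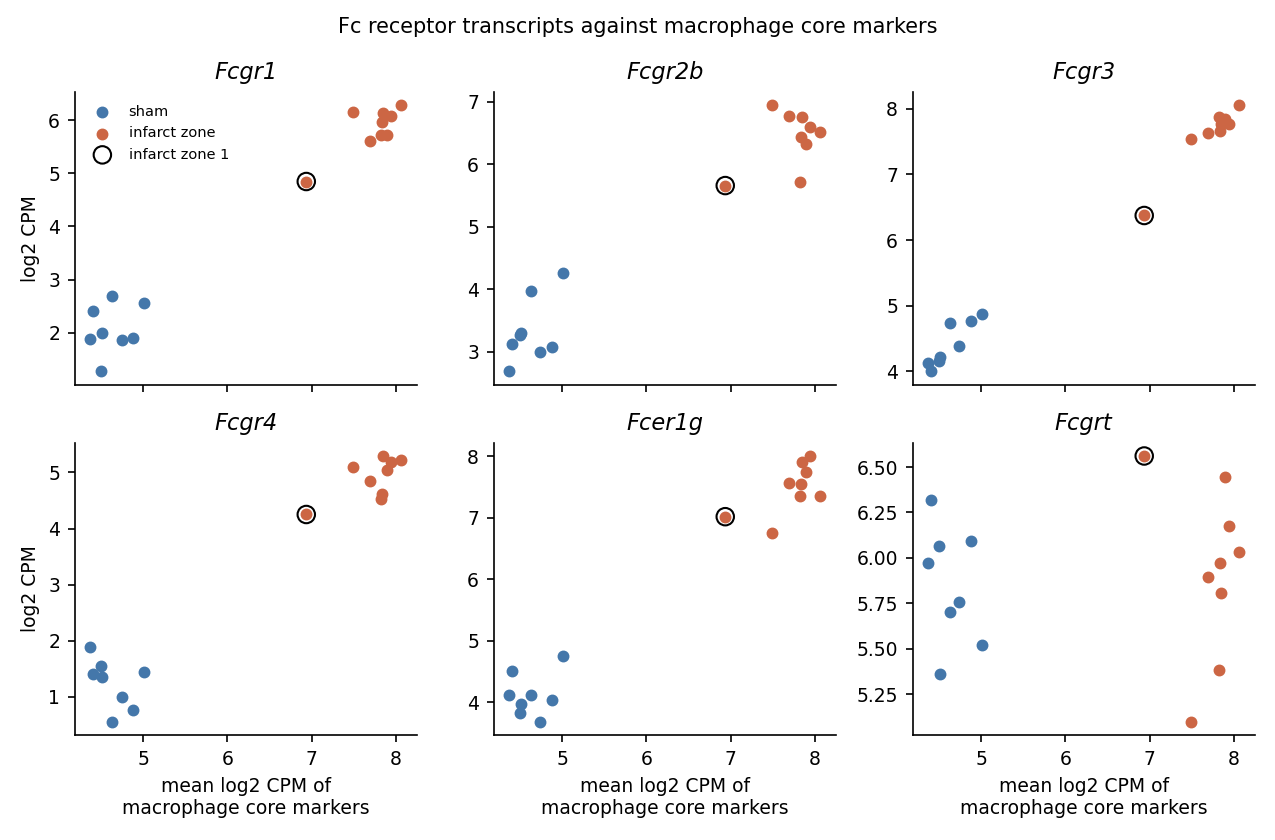
Log2 CPM of each Fc receptor gene against the mean log2 CPM of 5 macrophage core markers, with sham in blue (8 libraries), infarct zone in orange (9 libraries) and infarct zone replicate 1 circled. Fcgr3 lies close to a line within each group, while Fcgrt is at the same height in both groups although the markers differ.

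Markers of other cells that carry the receptors moved too, though not all upward. All 5 pan-leukocyte genes rose, from 3.68 for Cd52 to 2.83 for Ptprc, and their summed level was 56.9 to 84.6 CPM in sham and 384 to 936 CPM in the IZ. All 4 monocyte genes were called higher, Chil3 by 5.18, Plac8 by 4.05, Ccr2 by 3.35 and Ly6c2 by 0.65, with summed levels of 9.76 to 25.1 CPM and 65.7 to 209 CPM. Chil3 and Plac8, with 0 to 1 and 2 to 8 counts per sham library, passed the count filter through the IZ. The call of Ly6c2 (adjusted p 0.0371 by edgeR) was lost without sham replicate 1, 2 or 6 or IZ replicate 3 or 4, where its log2 fold change was 0.53 to 0.57. Without IZ replicate 3 or 4 only 2 of the 4 monocyte genes were tested and called. The part of these cells in the receptor values was not tested.

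Neutrophil genes varied widely between IZ libraries. All 4 tested of 7 rose, Csf3r by 5.17, Mmp8 by 4.98, S100a8 by 3.19 and S100a9 by 2.93, with summed levels of 4.95 to 12.2 CPM in sham and 15.8, in IZ replicate 1, to 218 CPM in the IZ. Per sham library these genes had 0 to 3, 0 to 2, 1 to 15 and 1 to 11 counts. They passed the count filter through the IZ, so a rise was close to fixed in advance. Without sham replicate 7 the value for Mmp8 was 5.92, and without IZ replicate 2, 3 or 4 only 2 of the neutrophil genes were tested and called. Mouse neutrophils are known to carry the products of Fcgr3 and Fcgr4, which ran from 82.6 to 265 CPM and from 18.7 to 38.9 CPM over the same IZ libraries. The part of neutrophils in these values was not tested.

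Markers of lymphoid cells and mast cells, which also carry Fcer1g or Fcgr2b, were low. None of the 6 NK cell and 6 T cell genes had enough counts to be tested, with summed levels of at most 3.64 and 2.18 CPM in sham and of 2.15 to 15.9 CPM and 4.83 to 15.1 CPM in the IZ. Of 7 mast cell genes only Kit was tested, and it rose by 1.49, and of 7 B cell and plasma cell genes only Cd79b was tested, which rose by 2.25. The summed B cell and plasma cell level reached 72.8 CPM in the highest IZ library. Of 5 platelet genes Pf4, which macrophages also make, was tested and rose by 2.20. The summed mast cell level was 3.14 to 9.94 CPM in sham and 7.18 to 20.0 CPM in the IZ, where Fcer1g was at 107 to 256 CPM. The part of these cells in the Fcer1g and Fcgr2b values was not tested. Without any of IZ replicates 2 to 9, Kit and Cd79b had too few counts to be tested.

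Genes of resident macrophages were split. Cx3cr1 rose by 2.65 and Mrc1 by 1.15, whereas Lyve1 fell by 1.30, Cd163 fell by 1.09 and Cbr2 fell by 0.82 on the log2 scale. Folr2 had a log2 fold change of 0.38 that was not called (adjusted p 0.108 by edgeR) but was called without IZ replicate 1, at 0.44, or without IZ replicate 6, at 0.47. Timd4 was too rare to be tested. The summed level was 81.7 to 116 CPM in sham and 115 to 188 CPM in the IZ. With total counts as library sizes, Cd163 and Lyve1 were not called and Cbr2 was at 0.25.

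Endothelial cells are known to express Fcgrt, and their markers were lower in the IZ or not called. Of 6 endothelial genes 2 were called lower, with Kdr, a receptor for vascular endothelial growth factor, falling most (it fell by 1.70), and 4 were not called. Their summed level was 381 to 711 CPM in sham and 279 to 461 CPM in the IZ. With total counts as library sizes 4 of the 6 were called higher, and Kdr was still lower. All 8 cardiomyocyte genes fell, with a median log2 fold change of -3.72, or -4.41 without IZ replicate 1. Which cells carried Fcgrt in either group was not tested.

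The wider pathway was described with lists of genes that take part in Fc receptor signalling and control. Of 141 list genes besides the members 133 had a feature and 92 were tested, of which 72 were called higher and 8 lower. Over all tested genes 36.3% were called higher and 33.1% lower. The pathway lists were chosen with earlier results known and share genes with the marker lists, among them Csf1r, Coro1a and Cd79b. Their counts are therefore not separate from those of the markers.

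Among other Fc receptors and relatives, Fcrls, a scavenger-type Fc receptor-like gene of mononuclear phagocytes, rose by 2.69 from 19.4 ± 5.45 CPM (SD, n = 8) to 125 ± 35.5 CPM (SD, n = 9). Trim21, the cytosolic antibody receptor, was at 5.19 ± 1.82 CPM (SD, n = 8) and 5.25 ± 2.45 CPM (SD, n = 9), with a log2 fold change of 0.00 (adjusted p 0.990 by edgeR) whose sign depended on the scaling and on the libraries used. B2m was the third tested gene of this list. Fcer1a and Ms4a2, the other chains of the high-affinity IgE receptor that share Fcer1g, had too few counts to be tested.

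Immunoglobulin genes, among them those of the IgG ligands, were expressed unevenly. Igkc, the kappa light chain, rose by 3.53 ± 0.94 (SE, adjusted p 0.00196 by edgeR) and Ighm, the heavy chain of IgM, rose by 2.57 ± 0.64 (SE, adjusted p 0.00113 by edgeR). The counts in the IZ ran from 7 to 2341 for Igkc and from 18 to 2188 for Ighm. The size of both values rests in part on IZ replicate 2, without which they were 2.28 and 1.61 and still called. Of the 9 IZ libraries, 6 lay above all of sham for Igkc and 8 for Ighm. Ptx3, a pentraxin that can bind Fc gamma receptors, rose by 3.44, with 9 of 9 IZ libraries above all of sham. The IgG heavy chain genes, whose products are the ligands proper, had too few counts to be tested.

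Other users of Fcer1g and its relatives that could be tested rose alongside it. Of the C-type lectins and other receptors listed as partners of Fcer1g or of its relatives, 3 of 11 were tested. All 3 rose, Clec4d by 5.46, Clec4n by 4.33 and Clec5a by 2.32. Their sham counts were only 0 to 7, 1 to 11 and 1 to 6 per library. They passed the count filter through the IZ, so a rise was close to fixed in advance. Clec5a could be tested in 9 of the 17 fits with 1 library left out. Among other signalling adaptors Tyrobp, which encodes DAP12 and sits beside Fcer1g in myeloid cells, rose from 29.5 ± 8.41 CPM (SD, n = 8) to 428 ± 122 CPM (SD, n = 9), by 3.87 on the log2 scale. Hcst, which encodes DAP10, an adaptor without an ITAM, rose by 2.69 and Cd79b by 2.25. Both passed the count filter through the IZ, with 0 to 6 and 0 to 4 counts per sham library. Without IZ replicate 2, 3 or 4 only Tyrobp of these adaptors was tested and called, and with any single sham library left out 5 of the 11 listed receptors were.

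Downstream of the activating receptors, 18 of 25 tested genes rose, 2 fell and 5 were not called, with a median log2 fold change of 1.38. Syk, the kinase that docks on the Fcer1g motif, rose by 1.38 from 16.6 ± 4.59 CPM (SD, n = 8) to 42.5 ± 5.79 CPM (SD, n = 9), and Lyn, a kinase that phosphorylates the motif, rose by 1.54. Lat2, an adaptor of myeloid cells and B cells, rose most, by 4.11. Pik3r1, a regulatory subunit of phosphoinositide 3-kinase found in many cell types, fell by 1.13. Plcg1 was at the threshold, with a log2 fold change of -0.23 (adjusted p 0.0499 by edgeR) that was not called in most alternatives, among them without any of IZ replicates 2 to 9 or of sham replicates 2, 3, 4, 6 and 8, where it was -0.25 to -0.18. The values of Syk and Lyn were smaller than the 3.12 to 3.85 of the receptor genes that use them, a difference that was not tested.

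The inhibitory arm rose as well, in 13 of 15 tested genes, with a median of 2.01. Inpp5d, the phosphatase that Fcgr2b recruits, rose by 3.25 from 5.24 ± 3.04 CPM (SD, n = 8) to 49.0 ± 13.4 CPM (SD, n = 9). Ptpn6, which encodes SHP-1, rose by 3.28 and Pirb, a paired immunoglobulin-like inhibitory receptor, rose most, by 4.35. The genes that fell were the broadly expressed relatives of these phosphatases: Ptpn11 fell by 0.94 and Inppl1 fell by 0.70. The log2 fold change of Inpp5d was close to the 3.12 of Fcgr2b itself.

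All 17 tested genes of phagocytic uptake rose, with a median of 2.77. They ranged from Nckap1l, a blood-cell subunit of the actin-regulating WAVE complex, at 3.64 to the general GTPase gene Rac1 at 0.48. Of 16 tested genes that control receptor expression, 12 rose, 1 fell and 3 were not called, with a median of 1.86. C3ar1, a complement receptor, rose most, by 3.81, and the transcription factor genes Spi1 and Irf8 rose by 3.50 and 2.67. Spi1 encodes the factor whose core motif was searched above, and it went from 3.11 ± 1.21 CPM (SD, n = 8) to 35.2 ± 9.70 CPM (SD, n = 9).

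Interferon gamma is the best known inducer of Fcgr1 and Fcgr4, and its receptor genes diverged. Ifngr1, the ligand-binding chain, rose by 0.996 on the log2 scale from 63.8 ± 13.3 CPM (SD, n = 8) to 127 ± 18.7 CPM (SD, n = 9). Ifngr2, the second chain, fell by 0.94 from 164 ± 30.8 CPM (SD, n = 8) to 85.7 ± 25.1 CPM (SD, n = 9). Ifng itself had at most 2 counts in any library and was not tested. With total counts as library sizes Ifngr2 was at 0.11, so that the direction of this gene depends on the scaling.

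The genes of the neonatal receptor's pathway were split. Of 8 tested genes 2 rose, 3 fell and 3 were not called, with a median log2 fold change of -0.11. B2m and Snx4, a sorting nexin of the endosome, rose by 1.29 and 0.46, whereas Rab4a, Exoc3 and Ehd1, which act in endosomal recycling and exocytosis, fell by 0.99, 0.89 and 0.42. With total counts as library sizes 6 were called higher. Rab4a was scarce, with sham at 9.28 ± 2.14 CPM (SD, n = 8) and the IZ at 4.79 ± 2.82 CPM (SD, n = 9).

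**Figure D5:**
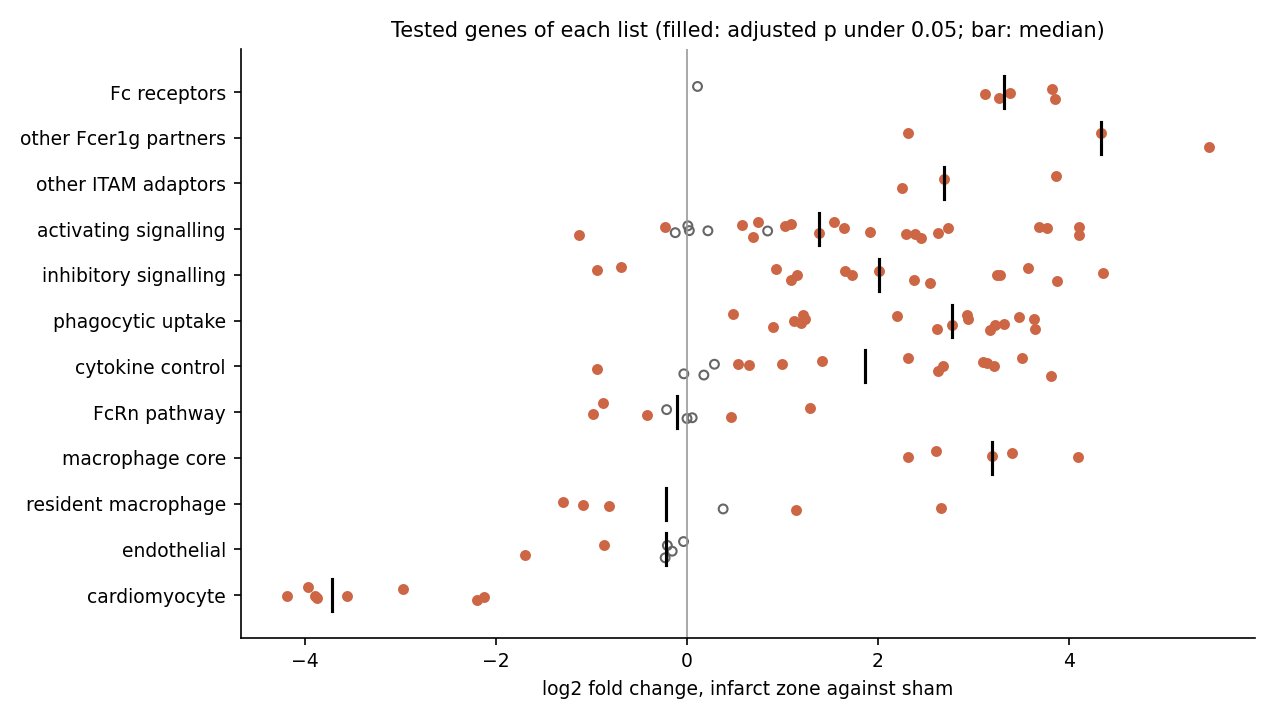
Log2 fold change (infarct zone against sham) of every tested gene in 12 lists, with called genes filled (edgeR adjusted p under 0.05), others open and a bar at the list median. Of the Fc receptors 5 lie between 3.12 and 3.85 with Fcgrt near 0, the phagocytic uptake genes all lie above 0, and the FcRn pathway genes lie on both sides of 0. The rows labelled other Fcer1g partners and other ITAM adaptors also hold their relatives Clec5a and Hcst.

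The genes most like each member were sought by Pearson's r of log2 CPM over the 17 libraries after the group means had been subtracted, among 9314 genes that averaged 10 CPM or more. These are descriptions without a test, since all genes of a library share its depth and its tissue mixture. Fcgr3 was most like Anxa2 (0.93), Tmsb4x (0.91) and Ctss (0.91). Fcgr1 was most like Ms4a6d (0.87), Gm12900 (0.84) and Nek6 (0.84), and Fcgr2b was most like Eps8 (0.86), Gm10343 (0.84) and Cd84 (0.84). For Fcgr4 they were Npm1 (0.88), Ythdf2 (0.86) and Gm13215 (0.85), for Fcer1g Serpinb6a (0.88), Gm15536 (0.81) and Slc6a6 (0.80), and for Fcgrt Immp2l (0.88), Krba1 (0.87) and Exoc3 (0.87).

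Among the members themselves the same measure depended on single libraries, 1 of them IZ replicate 1, the library that stood apart. It was 0.68 for Fcgr1 with Fcgr3, 0.67 for Fcgr1 with Fcgr2b and 0.54 for Fcgr2b with Fcgr3, and without that library 0.40, 0.57 and 0.37 over 16 libraries. Fcgr4 was at 0.12 with Fcgr3, 0.17 with Fcgr2b, 0.20 with Fcgr1 and 0.32 with Fcer1g, and without the library at -0.43, -0.02, -0.10 and 0.21. Fcgrt was at -0.39 with Fcgr1, -0.40 with Fcgr2b and -0.38 with Fcgr3, and without it at -0.19, -0.27 and -0.07. Other libraries moved r as well, as Fcgr1 with Fcgr4 was at 0.47 without sham replicate 8. Fcer1g was at 0.47 with Fcgr1, 0.35 with Fcgr2b, 0.40 with Fcgr3 and 0.26 with Fcgrt. With 1 library left out these ran from 0.36 to 0.68, 0.15 to 0.62, 0.25 to 0.51 and -0.05 to 0.46. For the genes listed above as most like each member, r without IZ replicate 1 was 0.74 to 0.88.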

How the data were processed

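Hearts of 17 mice, 8 sham and 9 IZ, were grouped as labelled, with replicate numbers from the labels. The authors made 3' end libraries with molecular identifiers, removed duplicates, trimmed with Cutadapt, mapped to mm10 and counted per gene with HTSeq; per the labels, Bowtie2 was among the tools. The deposited values are raw counts, not normalised. The annotation release, the strand setting and the treatment of multi-mapping reads are not given in the sources used here. Of 31647 features, 31521 matched a GRCm38 annotation and 35 were merged groups of overlapping genes. No library was a copy of another (chi-square per degree of freedom 2.41 to 252 over 136 pairs). Replicate numbers did not pair the samples (r of same-numbered libraries -0.22 to 0.13).

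edgeR 4.0.16 in R 4.3.3 was used with filterByExpr (minimum count 10), TMM factors (0.616 to 1.53) and a two-sided quasi-likelihood F-test with group as its sole term, with Benjamini-Hochberg adjustment over 12301 genes and a threshold of 0.05. The SE was derived from the F statistic. Genes with few sham counts passed the filter through their IZ counts, so a rise among them was close to fixed in advance. Ratios, shares and relations used log2 CPM with a prior count of 1, or counts for shares, and exact two-sided permutation (24310 splits; 362880 or 40320 pairings) in Python 3.11.15 (SciPy 1.17.1, pandas 2.3.3, NumPy 2.4.6). Transcript ends were compared by BLAST. Plots used Matplotlib 3.10.9. The scripts were tested on simulated data.

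The members, the gene lists and the tests were chosen with earlier results of these data known. By rule the named genes were the members, the highest and lowest of each list, the tested genes of lists of up to 7 genes and the 3 genes most like each member. The rule was not followed in full, and several genes of the marker lists were left unnamed. Outside this rule, Syk, Lyn, Inpp5d, Ptpn6, Ifngr1, Spi1, Irf8, Ptx3, Clec4n, Plcg1, Inppl1, Snx4, Exoc3 and Ehd1 were named for their role or to complete a count after their values were seen, and the likeness with single libraries left out was added then. The genes Itgam, Fcrl6, Fcrlb, Apcs, Pira6, Pira12, Pik3r5 and Lilrb4a were not analysed here. Alternatives were, within edgeR, library sizes from total counts, the upper quartile or DESeq2, DESeq2 1.42.0 with its Wald test, no filter, a minimum mean of 50 counts, removal of mitochondrially encoded features, a replicate block, a prior count of 5, medians in place of means, and the omission of each library. Nothing in the labels says which mice were operated on together, and no batch is given. The Poisson interval covers counting error only, whereas the interval of a log2 fold change rests on the SE and so includes the spread between mice.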

Additional observations from a re-analysis of the deposited data

Results flagged for a closer look

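In groups of 8 or 9 libraries, 48 sets of values were searched for a library far from the rest, and 3 were found, where chance gives about 1 in 20. All 3 were IZ replicate 1. Its Fcgr3 level was 82.6 CPM, against 185 to 265 CPM in the other IZ libraries. Relative to the macrophage core markers its Fcgr3 value was -0.56, against -0.17 to 0.06 in the others. Relative to the same markers its Fcgrt value was -0.38, against -2.44 to -1.45 in the others. The same library had 19.5% mitochondrial counts, against 4.22 to 6.78% in the other IZ libraries, and the highest cardiomyocyte sum of the group, 28186 CPM. Its part in these values was not tested beyond leaving it out, which gave a log2 fold change of 3.34 for Fcgr3 and -0.01 for Fcgrt.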

How the results depend on the processing

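The 5 calls of the members that rose were kept in all 26 alternatives, with log2 fold changes of 3.03 to 4.95. Fcgrt was called only with total counts as library sizes (1.17) and was at -0.0133 to 0.20 with single libraries left out. Total counts also left 0 pathway genes (0 at an unadjusted p under 0.05; edgeR) and 9 marker genes called lower, against 8 and 14, while the DESeq2 Wald test called 7 pathway genes lower. They gave positive values for Trim21 (1.07), Plcg1 (0.84), Ptpn11 (0.12), Inppl1 (0.38), Ifngr2 (0.11), Rab4a (0.0561), Ehd1 (0.65), Exoc3 (0.18) and Cbr2 (0.25), with 9176 genes higher and 1534 lower. The Trim21 log2 fold change was 0.11 with upper quartile scaling, 0.0552 without a filter, 0.0511 with the replicate block, 0.0427 over replicates 1 to 8 without it, and -0.15 to 0.10 with single libraries left out.

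A prior count of 5 gave 0.46 for Fcgr1 to Fcgr2b, -0.21 for Fcgr4 to Fcer1g, 0.38 for Fcgr1 and 0.0463 for Fcgr4 relative to macrophage markers, none of them called; total counts gave 0.46 for the last. Medians in place of means gave calls for Fcgr4 to Fcgr2b (0.56) and the Fcgr4 share (2.48 points). With the replicate block, where 8 pairs allow no raw p below 0.0078, 3 calls were lost: Fcgr1 to Fcgr2b (0.69), Fcgrt to B2m (-1.27) and Fcgr4 relative to the markers (0.57); Fcgr2b relative to the markers was 0.0214. The replicate numbers are shared by number alone (1 of 8 sham libraries correlated best with its own number), and the block left 4086 genes higher and 3798 lower, against 4245 and 3908 in the same libraries without it.

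Single libraries left out gave 0.46 to 0.69 for Fcgr4 and -0.11 to 0.0877 for Fcgr2b relative to the markers, 0.38 to 0.76 for Fcgr4 to Fcgr2b, 1.52 to 2.79 points for the Fcgr4 share and 0.30 to 0.52 for Fcgr1 to Fcer1g. Without the 2 libraries farthest from the median marker level, r in the IZ was -0.0458 for Fcgr2b, 0.82 for Fcgr3, -0.0134 for Fcer1g and 0.37 for Fcgrt, and in sham 0.73 for Fcgr3 and -0.66 for Fcer1g. With total counts Fcer1g in the IZ had r 0.78 and was called. Except where a scaling or prior shifts the values by construction, the cause was not tested. Sham counts of 2 to 13 for Fcgr4 and Fcgr1 limit the ratios.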
